A study of Mus musculus with 5 samples.

Results

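The 10 genes described here carry out antigen presentation by MHC class I in the mouse. They were taken by name, for their known part in the pathway and with earlier results of these data known: the light chain gene B2m, the heavy chain genes H2-K1, H2-D1, H2-Q7 and H2-T23, the peptide transporter genes Tap1 and Tap2, the loading gene Tapbp, the peptidase gene Erap1 and the regulator gene Nlrc5. All 10 were found among the 24419 rows of the expression table. The data are 3′-end RNA-seq of bone marrow-derived macrophages (BMMs), that is, adherent cells grown from C57BL/6 (C57BL6/J in the design text) bone marrow for 5 days with 50 ng/ml M-CSF, the growth factor of macrophages. All samples had received LPS, a bacterial activator of macrophages, at 100 ng/ml, so there was no resting group. For 18 h, 3 samples were then given 100 ng/ml Sema3G, a secreted semaphorin made as an Fc-tagged protein in 293T cells, and 2 samples were given PBS, so the control held no Fc-tagged protein. The comparison asks how Sema3G altered gene expression in activated macrophages. The labels do not say that the samples of a group came from separate cultures or animals, so p-values measure only the spread between these samples.

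Class I molecules show fragments of a cell's own proteins to CD8 T cells and are also read by NK cells. The proteasome cuts proteins into peptides, the TAP transporter moves the peptides into the endoplasmic reticulum, peptidases there trim them, and tapasin and its partner chaperones load them onto a heavy chain bound to beta-2 microglobulin, after which the complex travels to the surface. Macrophages stimulated through interferon or NF-kappa B pathways are known to raise transcription of many of these genes together, through short shared promoter motifs that bind NF-kappa B, interferon regulatory factors and the NLRC5 complex.

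Some of these motifs can be read in the promoters of the heavy chain genes, which are shown because H2-K1, H2-D1 and H2-Q7 carry the same kappa B letters. Promoters of 8 members were matched by symbol in RefSeq (GRCm38.p6). Tap2 and Nlrc5 had no entry in the promoter set used here. The stretches below are 30 bases long, read 5′ to 3′ on the strand of the gene, and the capitals mark the 9 letters of the kappa B site:
H2-K1, chr17:34000439-34000468, minus strand: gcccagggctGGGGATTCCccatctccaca
H2-D1, chr17:35262913-35262942, plus strand: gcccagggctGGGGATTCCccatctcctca
H2-Q7, chr17:35439012-35439041, plus strand: gcccatggctGGGGATTCCcatctccccag

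Over these 30 bases H2-D1 matched H2-K1 at 29 positions and H2-Q7 matched it at 21. The same promoters hold, closer to the start, the stretch that runs from the X2 box to the Y box, where the capitals mark the X2 core TGACGC and the Y box ATTGG. In H2-Q7 and B2m only the Y box carries the exact letters:
H2-K1, chr17:34000359-34000388, minus strand: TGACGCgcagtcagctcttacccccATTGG
H2-D1, chr17:35262993-35263022, plus strand: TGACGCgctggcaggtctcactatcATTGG
H2-Q7, chr17:35439090-35439119, plus strand: atgacgtgtaacagttctcacccctATTGG
B2m, chr2:122147609-122147638, plus strand: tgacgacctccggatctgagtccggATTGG

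Each stretch ends at its Y box, and compared base by base from there with no gaps, H2-D1 matched H2-K1 at 23 of 30 positions, H2-Q7 at 16 and B2m at 13. The H2-Q7 letters tgacgt lie 1 base further in than the X2 core of H2-K1, so those letters were not set against each other. Both H2-D1 stretches lie in an exon of 1 longer GENCODE transcript of that gene, whereas the others lie in no annotated exon. In the 250 bases before the start of each gene, searched on both strands, GGGGATTCC was found in 3 of the 8 members (H2-K1, H2-D1 and H2-Q7) and in 0.213% of 32851 promoters. TGACGC was found in H2-K1 and H2-D1 and in 6.12% of promoters, and ATTGG in all of the 8 members but Erap1 and in 33.8% of promoters. The interferon response letters GAAANNGAA were found in B2m, Erap1 and H2-T23 and in 7.13% of promoters. The X1 core AGCAAC (12.2% of promoters) and the interferon gamma letters TTCNNNGAA (7.02%) were found in 0 of the 8. The kappa B letters were picked as the known site of class I genes, so finding them in heavy chain genes is no test. For each member only the first promoter listed was searched, whereas the percentages cover all promoters listed. A match is a description of letters and not a measured binding site.

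On chromosome 17 (GRCm38, GENCODE M21) lie 7 of the members, in or beside the H2 complex. Tapbp (17:33915899-33929292, plus strand) and H2-K1 (17:33996017-34000347, minus strand) come first. Tap1 (17:34187553-34197225) and Tap2 (17:34203527-34216321) lie on the plus strand with 6301 bp between them, and the 5′ end of Tap1 shares 212 bp with Psmb9 on the other strand. H2-D1 (17:35262730-35267499, plus strand), H2-Q7 (17:35439155-35443773, plus strand) and H2-T23 (17:36029773-36032855, minus strand) follow. The other members are B2m (2:122147686-122153083), Nlrc5 (8:94434356-94527272) and Erap1 (13:74639568-74693201), all on the plus strand. Because class I genes resemble each other, the last 500 bases of their coding transcripts, where 3′-end reads fall, were cut into 75-base stretches and compared with the transcripts of all other genes. No stretch of B2m, H2-D1, Tap1, Tap2, Nlrc5 or Erap1 was found elsewhere. The share was 1.39% for Tapbp, 1.81% for H2-K1, 7.37% for H2-Q7 and 19.95% for H2-T23, so counts of H2-T23 and H2-Q7 are the least certain. Not all of this sharing was with class I genes. Stretches of H2-T23 were shared most often with Rab33b and Hook2, and those of Tapbp with Zbtb22 alone. Those of H2-K1 were shared with class I genes such as H2-D1 and H2-Q1, and those of H2-Q7 with H2-Q5 alone. Only identical stretches were looked for.

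Each library held between 1283029 and 1487137 UMIs, that is, unique molecules, on listed genes, and between 1798469 and 2215855 in all. Values are CPM, UMI counts scaled to a fixed total for the whole library, and the 3 counts taken as a floor correspond to 1.35 to 1.67 CPM. A UMI marks 1 molecule whatever its length, so CPM of different genes can be set side by side without dividing by length. Rn45s, which encodes the precursor of ribosomal RNA, made up 1.01% and 3.19% of all UMIs after PBS and 6.31%, 7.40% and 7.88% after Sema3G, and the UMIs on listed genes made up 77.6% and 75.6% of all UMIs after PBS and 71.3%, 67.1% and 65.9% after Sema3G. Since CPM is a share of the total, both moved together with the groups in every CPM value below. When CPM was taken over listed genes without Rn45s, which leaves out both, the median log2 fold change was −0.20 over the members tested and 0.04 over all genes. With limma on log2(CPM + 1), 182 of 10088 genes tested (1.8%) passed an adjusted p of 0.05, of which 160 (1.59%) were higher and 22 (0.218%) lower with Sema3G. The split was 347 and 3 when CPM was scaled by TMM factors, which moved the median log2 fold change of all genes from −0.22 to −0.02. The number of genes called was 99 without PBS replicate 1, 710 without Sema3G replicate 1, 27 without Sema3G replicate 2 and 32 without Sema3G replicate 3. Of the 8 macrophage markers 7 had at least 3 UMIs in every library (Mertk had 2 and 0 with PBS), with summed levels of 9761 to 12570 CPM with PBS and 8860 to 9518 CPM with Sema3G. Markers of dendritic cells, which also present antigen, summed to at most 2.14 CPM with PBS and 2.26 CPM with Sema3G, and Flt3, Xcr1, Siglech and Cd209a were at 0 in every library. Among B cell markers, Cd79b was at a few UMIs (2.75 and 2.68 CPM with PBS, 0.556, 0 and 0.461 CPM with Sema3G), and Cd79a, Ms4a1 and Pax5 were at 0. The T and NK cell markers summed to 4.28 to 9.89 CPM with PBS and 2.30 to 8.90 CPM with Sema3G, with Cd3e, Cd3g, Cd8a, Ncr1 and Klrb1c at 0. Neutrophil markers summed to 116 to 169 CPM and 103 to 133 CPM, nearly all of it S100a8. That gene was at 113 and 165 CPM with PBS and at 102, 130 and 129 CPM with Sema3G. S100a9 was at most 1.84 CPM, and Elane and Ngp were at 0 in every library. Stromal and endothelial markers summed to 21.9 to 52.2 CPM and 16.7 to 38.9 CPM. Of these, Pecam1 was at 28.6 and 13.4 CPM with PBS and at 27.2, 9.93 and 17.5 CPM with Sema3G. What these RNAs add to the class I values was not tested.

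RNAs of the light chain and of the classical heavy chains H2-K1 and H2-D1 were among the most abundant of these cells, whereas those of the transporter, the trimming peptidase, the regulator and the other heavy chains were far scarcer. B2m ranked 4 among all genes by mean CPM, H2-D1 ranked 16, H2-K1 ranked 32 and Tapbp ranked 111, whereas Tap1 and Tap2 ranked 2178 and 2331. The order B2m, H2-D1, H2-K1, Tapbp, then the transporters, held in all 5 libraries. Tap1 was above Tap2 in 3 of the 5, and Erap1 was above Nlrc5 in the 3 Sema3G libraries and below it in both PBS libraries. H2-T23 was below these in every library, and H2-Q7 was lowest throughout. Together the 10 genes took 2.73% and 2.17% of the UMIs on listed genes with PBS and 2.48%, 1.52% and 1.36% with Sema3G.

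None of the 9 members that could be tested passed the adjusted p in limma, beside 1.8% of all genes. Of these 9, 3 had an unadjusted p under 0.05 (H2-K1, Tap1 and Erap1), as had 21.1% of all genes, and neither edgeR nor DESeq2 called any of the 8 members they tested. On the deposited CPM the log2 fold change was below 0 in 8 and above 0 in 1 (Tap2 and Nlrc5 changed sign in other settings). Of all 10088 genes tested, 6805 were below 0 and 3283 above. The median of the members was −0.49 beside −0.22 over all genes tested, and 7 of the 9 lay below that median of all genes. With TMM scaling the medians were −0.27 and −0.02. The groups did not overlap for 2 members that were lower with Sema3G, H2-K1 and Tap1 (26.5% of all genes tested were so), and for 1 that was higher, Erap1 (11.9% of all genes). With CPM over listed genes without Rn45s, the groups overlapped for H2-K1 and Tap1, too, and Erap1 alone of the 9 had groups that did not. The share of all genes without overlap was not worked out for that scaling, so whether this count is unusual cannot be said.

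On the deposited CPM the libraries of a group did not behave alike. PBS replicate 1 was the highest library for 7 of the 9 members tested (39.3% of all genes), and Sema3G replicate 3 was the lowest for 6 (31.3% of all genes). Sema3G replicates 2 and 3 were below both PBS libraries for 7 members (42.0% of all genes), but Sema3G replicate 1 was above PBS replicate 2 for 7 members, too (49.4% of all genes). These are counts of 9 genes, and whether the members differ in them from other genes was not tested. Without Sema3G replicate 1, 3 members were called lower by limma, namely B2m, H2-K1 and Tapbp, beside 4.36% of all genes called lower in the same comparison.

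**Figure D1:**
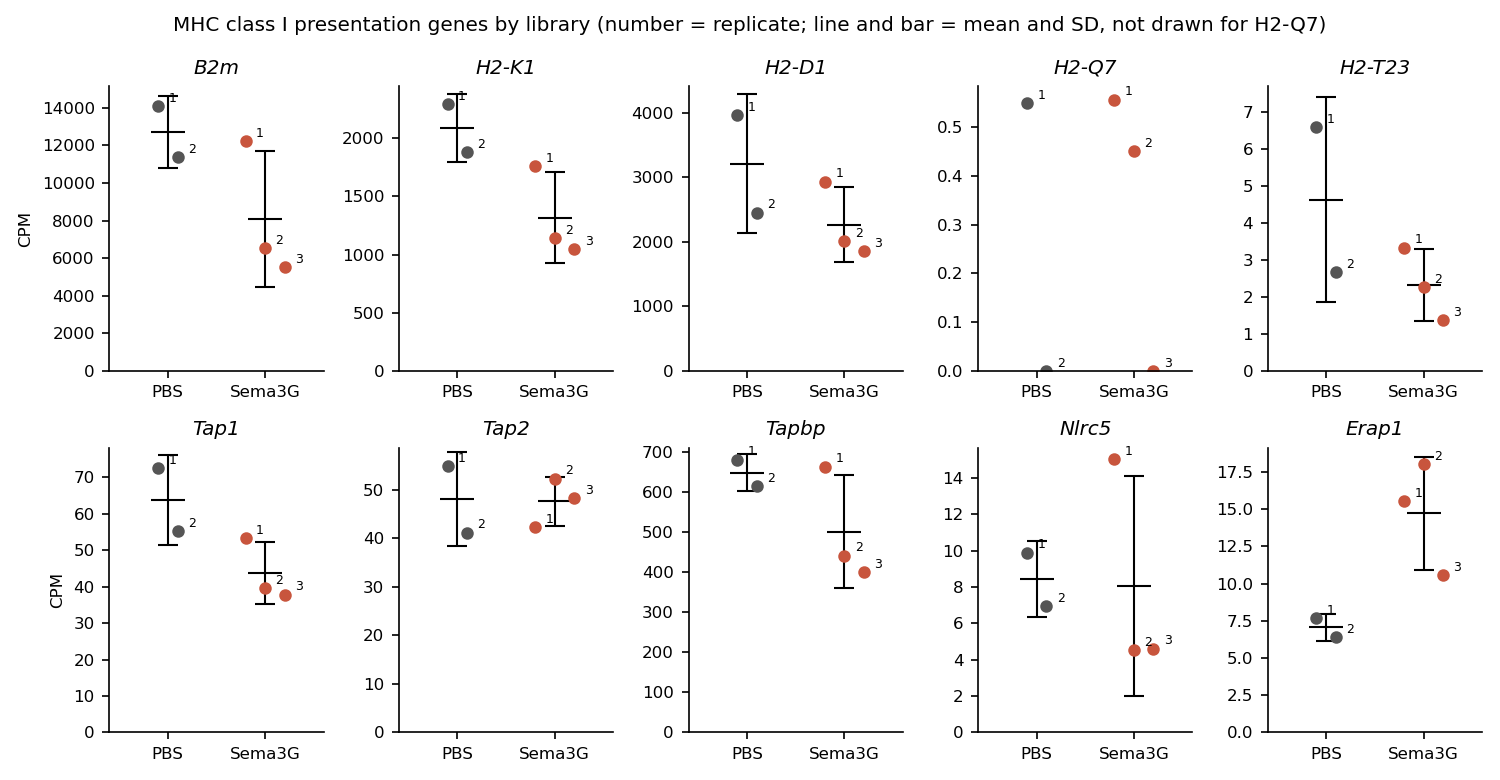
CPM of each class I gene (vertical axes, linear, starting at 0) in the 2 PBS and 3 Sema3G libraries, with a number for the replicate and lines and bars for mean and SD (not drawn for H2-Q7, which had 3 UMIs in all). Sema3G replicate 1 lies near the PBS libraries for most genes, while Sema3G replicates 2 and 3 lie below both PBS libraries for 7 genes, and Erap1 is the only gene with all 3 Sema3G libraries above both PBS libraries.

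B2m encodes beta-2 microglobulin, the light chain that every classical class I molecule needs to fold. Its level was 14085 and 11364 CPM with PBS and 12235, 6525 and 5515 CPM with Sema3G (between 11963 and 25636 UMIs a library). Sema3G replicate 1 lay between the PBS libraries, and the other Sema3G libraries were lower. The means were 12725 ± 1924 CPM (SD, n = 2) and 8092 ± 3624 CPM (SD, n = 3), a log2 fold change of −0.73 (standard error 0.40, 95% interval −1.57 to 0.10, limma adjusted p = 0.298). It was −1.08 (limma adjusted p = 0.0435) without Sema3G replicate 1, −0.50 (limma adjusted p = 0.731) without Sema3G replicate 3, and −0.51 (limma adjusted p = 0.470) with TMM scaling. In bulk samples such as these, fewer cells of a type and less RNA per cell cannot be told apart.

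H2-K1 encodes the heavy chain H2-K, a classical class I molecule that presents peptides to CD8 T cells. It was at 2292 and 1881 CPM with PBS and at 1764, 1139 and 1049 CPM with Sema3G. All Sema3G libraries were below both PBS libraries, although Sema3G replicate 1 was closer to PBS replicate 2 than to the other Sema3G libraries. Its log2 fold change of −0.69 (standard error 0.25, 95% interval −1.23 to −0.16) did not pass correction, with a limma adjusted p of 0.143. Without Sema3G replicate 1 it was −0.93, with a limma adjusted p of 0.0211, without Sema3G replicate 3 it was −0.55 (limma adjusted p = 0.498), and with TMM scaling it was −0.47 (limma adjusted p = 0.280).

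H2-D1 encodes the other classical heavy chain found in this strain, H2-D. Its values were 3970 and 2452 CPM with PBS and 2934, 2008 and 1862 CPM with Sema3G. The PBS libraries were further apart than for H2-K1, and the groups overlapped. The log2 fold change was −0.49 (standard error 0.29, 95% interval −1.09 to 0.11, limma adjusted p = 0.328), and it became −0.14 when PBS replicate 1 was left out and −0.84 when PBS replicate 2 was. With TMM scaling it was −0.27.

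The non-classical heavy chains were scarce. H2-T23 encodes Qa-1, which shows leader peptides of other class I molecules to receptors of NK cells, and it was at 6.59 and 2.68 CPM with PBS and at 3.34, 2.26 and 1.38 CPM with Sema3G, from only 3 to 12 UMIs a library. Its groups overlapped, and the log2 fold change of −0.71 had a standard error of 0.50 and a 95% interval of −1.75 to 0.33 (limma adjusted p = 0.412). The value was −0.19 with PBS replicate 1 left out and −1.23 with PBS replicate 2 left out. Of H2-Q7, a Qa-2 heavy chain gene, 3 UMIs were counted in all, namely 1 in PBS replicate 1, 1 in Sema3G replicate 1 and 1 in Sema3G replicate 2. It was under the filter of a mean of 1 CPM and under the floor in every library, so it was not tested and no fold is given.

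Within a library, counts of the members can be set against each other without the library total. UMIs of the 4 heavy chain genes per B2m UMI were 0.445 and 0.382 with PBS and 0.384, 0.483 and 0.528 with Sema3G. The value was highest in Sema3G replicates 2 and 3, the libraries with the least B2m, but Sema3G replicate 1 lay beside PBS replicate 2. H2-K1 made up 36.6% and 43.4% of the heavy chain UMIs with PBS and 37.5%, 36.2% and 36.0% with Sema3G, so 4 of the 5 libraries were close and PBS replicate 2 stood apart.

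Tap1 and Tap2 encode the partner chains of the peptide transporter, which works only as the pair. Tap1 was at 72.5 and 55.1 CPM with PBS and at 53.4, 39.7 and 37.8 CPM with Sema3G (82 to 132 UMIs a library), and all Sema3G libraries were below both PBS libraries, replicate 1 only narrowly. For Tap1 the log2 fold change of −0.54 (standard error 0.23, 95% interval −1.01 to −0.07) did not pass correction (limma adjusted p = 0.186). It was between −0.74 and −0.35 with each library left out, −0.33 with TMM scaling (limma adjusted p = 0.459) and −0.26 with CPM over listed genes without Rn45s (limma adjusted p = 0.614).

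Tap2 was at 54.9 and 41.2 CPM with PBS and at 42.3, 52.3 and 48.4 CPM with Sema3G, with the Sema3G libraries inside the range of the PBS libraries. Its log2 fold change was −0.0033, with a standard error of 0.22 and a 95% interval from −0.46 to 0.46 (limma adjusted p = 0.995), and its sign was above 0 with TMM scaling (0.22). Tap1 UMIs per Tap2 UMI were 1.32 (95% Wilson interval 1.02 to 1.71) and 1.34 (0.997 to 1.80) with PBS. With Sema3G they were 1.26 (0.936 to 1.70), 0.759 (0.5755 to 0.9999) and 0.781 (0.586 to 1.04). More Tap1 than Tap2 was counted in 3 libraries, including Sema3G replicate 1, and more Tap2 than Tap1 in the other two. The intervals cover counting error only, and those of Sema3G replicate 1 and of the other Sema3G libraries overlap.

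**Figure D2:**
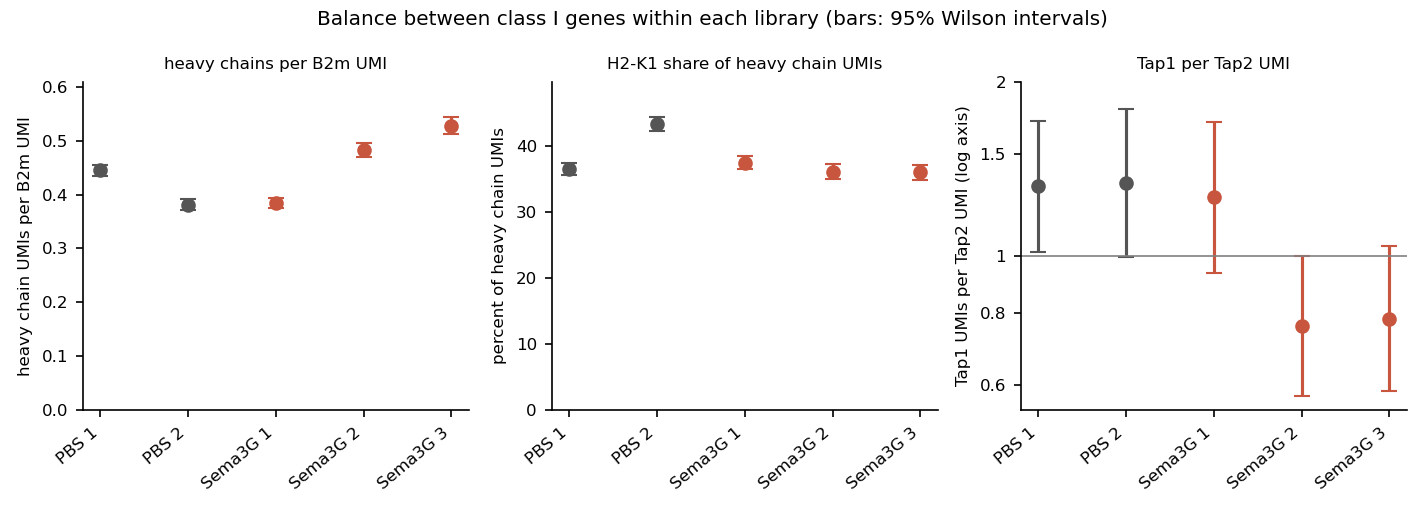
Heavy chain UMIs per B2m UMI, the H2-K1 percent of heavy chain UMIs (both axes start at 0) and Tap1 UMIs per Tap2 UMI (log axis) in each library, with bars for 95% Wilson intervals that cover counting error only. The Tap1 to Tap2 ratio lies between 1.26 and 1.34 in 3 libraries and between 0.759 and 0.781 in Sema3G replicates 2 and 3.

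Tapbp encodes tapasin, which holds the empty class I molecule at the transporter until a well-fitting peptide is bound. It was at 680 and 615 CPM with PBS and at 663, 441 and 399 CPM with Sema3G. Sema3G replicate 1 was inside the PBS range and the other Sema3G libraries were below it. The log2 fold change was −0.40 (standard error 0.22, 95% interval −0.86 to 0.06, limma adjusted p = 0.298). Leaving out Sema3G replicate 1 gave −0.62 (limma adjusted p = 0.0432), leaving out Sema3G replicate 3 gave −0.26 (limma adjusted p = 0.699), and TMM scaling gave −0.18 (limma adjusted p = 0.686).

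Erap1 encodes the aminopeptidase of the endoplasmic reticulum that trims peptides to the length class I molecules bind, and it was the only member with a log2 fold change above 0 on the deposited CPM (with TMM scaling Tap2 was above 0, too). It was at 7.69 and 6.42 CPM with PBS (14 and 12 UMIs) and at 15.6, 18.1 and 10.6 CPM with Sema3G (28, 40 and 23 UMIs). Every Sema3G library was above both PBS libraries, with means of 7.06 ± 0.897 CPM (SD, n = 2) and 14.7 ± 3.79 CPM (SD, n = 3). Their log2 fold change of 0.94 (standard error 0.33, 95% interval 0.24 to 1.64) did not pass correction (limma adjusted p = 0.138). It was 1.17 with TMM scaling (limma adjusted p = 0.0651) and 1.30 in edgeR's quasi-likelihood test (adjusted p = 0.0594). When CPM was taken over listed genes without Rn45s, it was 1.24 and passed (limma adjusted p = 0.0396), beside 4.89% of all genes called higher in that comparison. It did not pass in DESeq2 (1.28, adjusted p = 0.236), and with each library left out it was between 0.79 and 1.15 with limma adjusted p from 0.146 to 0.454.

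Nlrc5 encodes the transactivator that assembles on the X and Y boxes of class I promoters. Its values were 9.89 and 6.96 CPM with PBS and 15.0, 4.51 and 4.61 CPM with Sema3G, from 10 to 27 UMIs a library. Sema3G replicate 1 was the highest of all libraries and the other Sema3G libraries were the lowest. The log2 fold change was −0.23 (standard error 0.45, 95% interval −1.17 to 0.70, limma adjusted p = 0.787). It was −0.74 without Sema3G replicate 1 and 0.026 without Sema3G replicate 2, and it was also above 0 in edgeR's test (0.12), so no direction can be given.

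**Figure D3:**
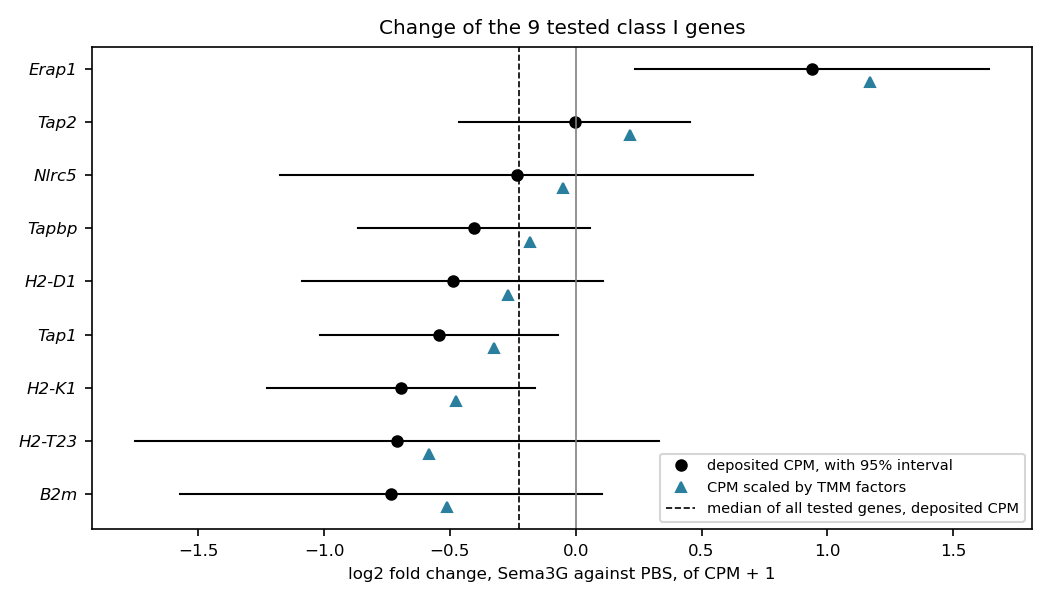
Log2 fold change of the 9 tested class I genes, Sema3G against PBS, on log2(CPM + 1) (black points with 95% limma intervals) and after TMM scaling (blue triangles), with a dashed line at the median of all genes tested (−0.22). The intervals of H2-K1, Tap1 and Erap1 leave out 0, but none of the 9 passed the adjusted p.

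**Figure D4:**
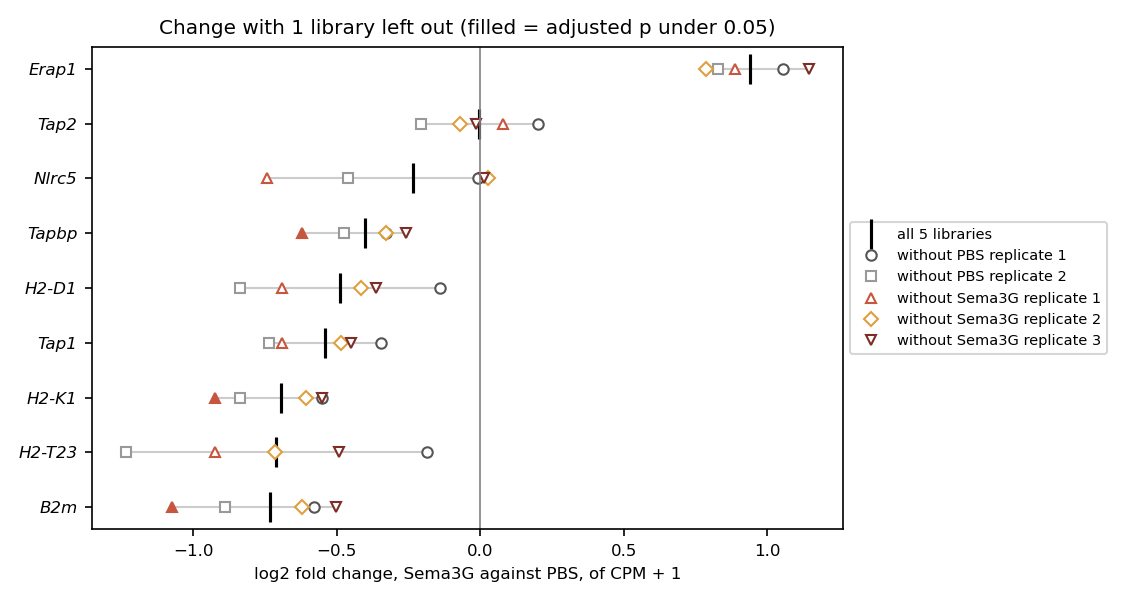
Log2 fold change of the same genes with all 5 libraries (black bars) and with each library left out (symbols, filled where the limma adjusted p is under 0.05). The filled symbols are those of B2m (−1.08), H2-K1 (−0.93) and Tapbp (−0.62) without Sema3G replicate 1, and Tap2 and Nlrc5 lie on both sides of 0.

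The rest of the pathway was looked at through 6 lists that hold 98 genes, of which 95 had a row, 18 were at 0 in every library and 72 were tested. Of these 72, 1 was called higher and 0 lower by limma (1.59% and 0.218% of all genes were), and 13 had an unadjusted p under 0.05, or 18.1% beside 21.1% of all genes. The median log2 fold change was −0.23, beside −0.22 for all genes and −0.49 for the members, and it was −0.02 with TMM scaling. The medians and log2 fold changes of the lists that follow are on the deposited CPM and are to be read beside that −0.22. The groups did not overlap for 19 genes that were lower (26.4%, beside 26.5% of all genes) and for 5 that were higher (6.94%, beside 11.9%).

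The gene called was Lnpep, in the list of proteasome parts and other peptidases, which encodes the insulin-regulated aminopeptidase of endosomes, a relative of ERAP1 that trims peptides during cross-presentation. It rose from 2.75 and 2.14 CPM with PBS to 5.56, 11.7 and 18.0 CPM with Sema3G (log2 fold change 1.76, standard error 0.44, limma adjusted p = 0.0479). Every Sema3G library was above both PBS libraries, but the Sema3G libraries themselves were widely spread. The call held in 6 of 15 other settings. Its limma adjusted p was 0.0724 when PBS replicate 1 was left out, 0.0896 when PBS replicate 2 was, 0.218 without Sema3G replicate 2 and 0.317 without Sema3G replicate 3. With Sema3G replicates 2 and 3 averaged, the limma adjusted p was 0.308.

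The list of peptide-making genes, Lnpep included, had a median log2 fold change of −0.32 over the 17 tested. Pomp, the chaperone that assembles proteasomes, was at 499 and 296 CPM with PBS and 329, 202 and 204 CPM with Sema3G (log2 fold change −0.68, limma adjusted p = 0.137). Psmb8, a catalytic subunit of the immunoproteasome, had a log2 fold change of −0.32 (limma adjusted p = 0.406). Npepps, a cytosolic aminopeptidase, and Psme1, a subunit of the PA28 activator, had log2 fold changes of 0.18 and −0.01. Without Sema3G replicate 1, Pomp, Psmb6, Psmb10, Rela and Vamp8 were called lower (5 of 72, beside 4.36% of all genes), and without PBS replicate 2 Pomp was the only one of the 72 called (lower, beside 0.397% of all genes), so these genes are named for those calls. Psmb10, the third immunoproteasome subunit, whose name was taken up after its values were seen, was at 110 and 92.6 CPM with PBS and at 88.4, 53.7 and 50.7 CPM with Sema3G (−0.69, limma adjusted p = 0.122).

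The chaperones of class I folding had a median of 0.06 over 9 genes, with 1 of the 9 below the median of all genes, none called, and a range from −0.32 to 0.17. Hspa5, Hsp90b1 and Canx, which fold many proteins of the endoplasmic reticulum, had log2 fold changes of 0.06, 0.14 and 0.15, and calreticulin (Calr), which holds class I in the loading complex, had −0.19. These 4 chaperones also serve other secreted and membrane proteins.

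Among the other heavy chains and class I-like chains, 14 of 26 genes were at 0 in every library and 0 of the 10 tested were called. Their median was −0.34, with 7 below 0 and 3 above, beside 6805 and 3283 of all 10088 genes tested. Hfe, which regulates iron uptake, had a log2 fold change of −0.48, Fcgrt, the neonatal Fc receptor, −0.36, H2-M3, which presents formylated peptides, −0.58, and H2-M2 −0.38. Cd1d1, which presents lipids to NKT cells and was singled out after its values were seen, was at 26.9 and 18.7 CPM with PBS and at 10.6, 10.8 and 10.14 CPM with Sema3G (−1.03, limma adjusted p = 0.0846). Its Sema3G libraries were close to each other and all below the PBS libraries. H2-T24, taken up in the same way, was at 1.10 and 0 CPM with PBS and at 3.89, 1.81 and 1.84 CPM with Sema3G, from 0 to 7 UMIs a library. It passed the filter of a mean of 1 CPM only through the Sema3G libraries, so its test is not given. Its group means were 0.549 CPM with PBS and 2.51 CPM with Sema3G.

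Of the genes that drive class I transcription, 0 of 20 tested were called, with a median of −0.11, and 8 were lower and 1 higher with no overlap between groups (40% and 5%, beside 26.5% and 11.9% of all genes). The most abundant were Irf8 (log2 fold change −0.14) and Irf2 (0.27), which encode interferon regulatory factors, and the interferon receptor genes Ifnar2 (0.19) and Ifngr1 (−0.34). Rela, the NF-kappa B subunit that binds kappa B sites such as those printed above, was singled out after its values were seen. It was at 125 and 123 CPM with PBS and at 98.4, 69.0 and 57.2 CPM with Sema3G, all below the PBS libraries (−0.76, limma adjusted p = 0.0851). Irf1, chosen in the same way, was at 147 and 107 CPM with PBS and 101, 85.3 and 73.3 CPM with Sema3G (−0.54, limma adjusted p = 0.156).

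In the cross-presentation route, by which engulfed antigen reaches class I, 0 of 13 genes were called and the median was −0.37. Cybb and Cyba, the membrane subunits of the phagocyte oxidase, had log2 fold changes of −0.17 and −0.37, and Rab14 and Vamp8, which act in endosome traffic, −0.02 and −0.42. Only 3 of the 9 receptor genes with a row could be tested. Pirb, an inhibitory receptor of macrophages that binds class I, was at 752 and 745 CPM with PBS and at 594, 542 and 538 CPM with Sema3G (−0.42, limma adjusted p = 0.213). Lilrb4a had −0.42 and Klra2 −0.65, and neither was called.

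**Figure D5:**
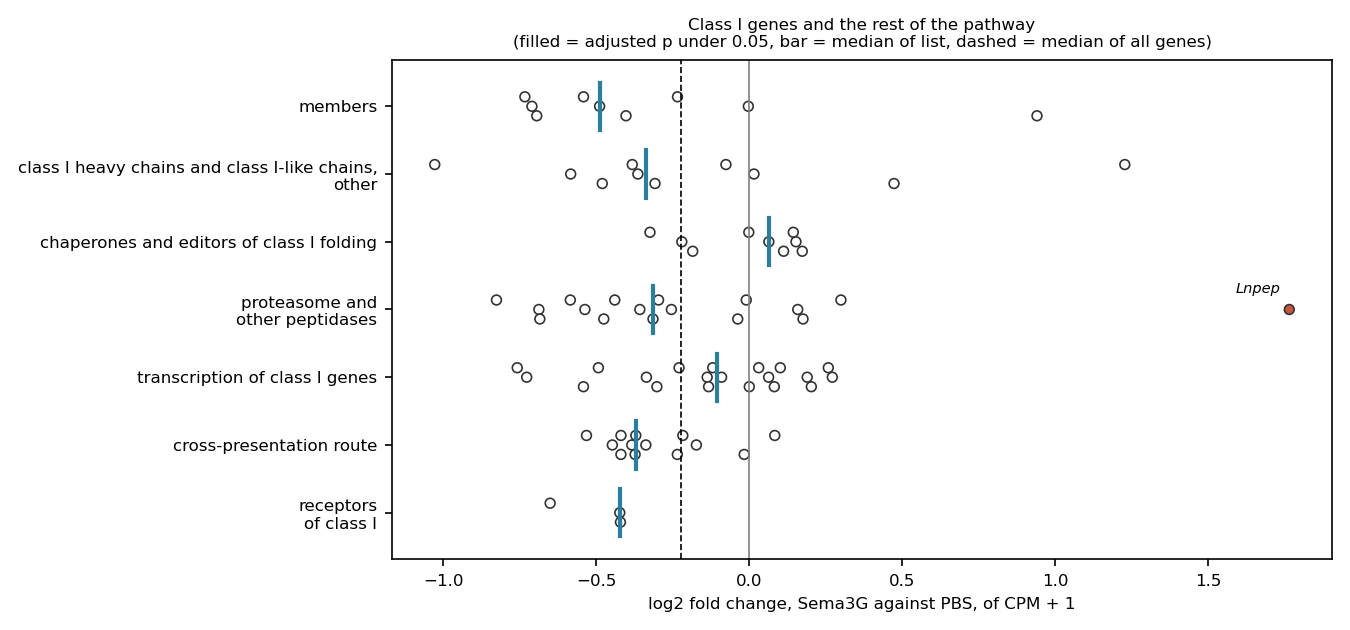
Log2 fold change, Sema3G against PBS, on log2(CPM + 1) of each tested gene (points) in the members and in the 6 lists of other pathway genes, with a bar for the median of the list and a dashed line for the median of all genes (−0.22). Lnpep at 1.76 is the only filled point, that is, the only gene with a limma adjusted p under 0.05.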

How the data were processed

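RNA 3′ ends of 2 PBS and 3 Sema3G samples were sequenced with UMIs. The authors mapped reads to mm10 and counted UMIs per gene with Strand NGS (gene annotation, strand setting and filter not given in the sources used here), and the submitters' processing notes name edgeR 3.12. They deposited CPM per library, and p-values, q-values and a ranking of their own comparison, which were not used. Within each library every CPM was a multiple of the value of 1 UMI, so UMI counts could be recovered (100% of values within 0.01 of a whole count). The symbols of 27 rows had become dates and are not named.

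Genes with mean CPM of 1 or more were tested with limma (3.58.1, R 4.3.3, mean-variance trend) on log2(CPM + 1), which understates changes of low genes, with Benjamini-Hochberg adjustment over all 10088 genes and a limit of 0.05. On the recovered counts, edgeR's quasi-likelihood test (4.0.16) called 383 genes and DESeq2 (1.42.0) called 235. The fits were tested on simulated data with the same dispersion for all genes and 200 genes changed 4-fold. limma and edgeR recovered 100% of these genes and DESeq2 99%, with 19, 12 and 2 false calls. Such changes are larger than those of the members, so the simulation does not say how well changes of their size would be found. Other settings changed the pseudocount, filter, scaling, tool and block, left out each library, and, added after seeing the data, averaged Sema3G replicates 2 and 3. These 2 libraries were the most alike (chi-square per degree of freedom 1.77, other 9 pairs 6.57 to 29.6). They differed beyond sampling noise and were kept apart, but such a difference does not show that they came from separate cultures.

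The members, lists and tests were chosen with earlier results of these data known. Named are all members and, per list, genes past the adjusted p and the 4 with the highest mean CPM, with exceptions marked. Wilson intervals and the floor of 3 counts cover counting error only, and intervals of fold changes come from limma and the spread between libraries.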

Additional observations from a re-analysis of the deposited data

How the results depend on the processing

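Depth limited H2-T23, Nlrc5, Erap1 and Lnpep, which rested on few UMIs, and H2-Q7, for which no alternative gives an interpretable value. B2m, H2-K1, H2-D1, Tap1, Tapbp, Erap1 and Lnpep kept their direction under all 15 alternatives, and H2-T23 under the 13 that gave it a value. The number of genes called, 182, was 108 with no filter, 350 with TMM scaling, 495 when CPM was taken over listed genes without Rn45s, 383 with edgeR, and 19 with Sema3G replicates 2 and 3 averaged (chosen after seeing the data), and between 27 and 710 with 1 library left out. The number of members called, 0, was 1 (Erap1) with CPM over the listed genes and 0 to 3 with 1 library left out. Of the other pathway genes, 0 were called with a pseudocount of 0.1 or of 5, with no filter, with a mean of at least 5 CPM or with the replicates averaged, and 0 to 6 with 1 library left out. The log2 fold change of Tap2 was above 0 with TMM (0.22), CPM over the listed genes (0.28), edgeR (0.25) and DESeq2 (0.22), and between −0.21 and 0.20 with 1 library left out. That of Nlrc5 was above 0 with CPM over the listed genes (0.013), edgeR (0.12), DESeq2 (0.10) and the averaged replicates (0.020), and between −0.74 and 0.026 with 1 library left out. The cause of these differences was not tested.

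The groups share replicate numbers 1 and 2 only. Deviations of same-numbered libraries correlated at 0.173 and 0.111, and with 2 pairs the numbers do not show that samples were paired. With the replicate block 573 genes were called (298 higher and 275 lower), 1 member (Erap1) and 5 other pathway genes (Cd1d1, Lnpep, Pomp, Rela and Sec61a1), and Nlrc5 had a log2 fold change of 0.013. Sema3G replicate 3 shares its number with no PBS library and adds nothing to the difference in that fit. Erap1 was at 1.15 (limma adjusted p = 0.0382) with the block and at 1.15 (limma adjusted p = 0.270) without that library and without the block.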
